A study of Mus musculus with 6 samples.

Results

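Corepressor genes of the Sin3 complex and its class I histone deacetylases were followed under TGF-beta in NMuMG cells, which derive from the normal mouse mammary gland and lose their epithelial form when given this factor. The genes were chosen by symbol from the deposited table of normalised read counts, and 9 of the 9 symbols were found (Hdac1, Hdac2, Hdac3, Sin3a, Sin3b, Sap30, Rbbp4, Rbbp7 and Ncor1) among 14526 genes in all. RNA was sequenced in 6 libraries, 3 from cells given small interfering RNA against Mnt (siMnt) and 3 from cells given a non-targeting control (siNTC). TGF-beta and siRNA were added together 16 hours after plating, both were renewed on day 2, and both groups were taken on day 4. Since every library came from TGF-beta-treated cells of 1 line, each difference below is between siRNAs within that treatment.

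The repressor Mnt forms a dimer with Max on the E-box CACGTG, a sequence at which Myc and Max activate transcription. Its amino-terminal Sin3-interacting domain contacts the scaffold proteins Sin3a and Sin3b. Each scaffold carries histone deacetylases, which remove acetyl groups from histone tails and so lower transcription of the genes nearby. The comparison asked whether transcripts of this machinery themselves differed once Mnt was lowered.

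Hdac1, a catalytic subunit shared by the Sin3, NuRD and CoREST complexes, fell in siMnt cells to 61.4% of the control level, alone among the 9 genes in passing the test over all genes. Hdac3, the deacetylase of the NCoR complex, lay at 74.8% of control, just outside the threshold, and Hdac2, the closest relative of Hdac1, lay at 86.1% and did not pass. The scaffolds, the histone-binding subunits Rbbp4 and Rbbp7, the linker Sap30 and the nuclear receptor corepressor Ncor1 lay between 95.6% and 118% of control and did not pass. The test was limma on log2(value + 1) over the 12568 genes whose mean normalised read count was 10 or more, which included all 9, with a threshold of 0.05 on the Benjamini-Hochberg adjusted p. Of all tested genes 3.93% passed, 2.56% higher and 1.37% lower in siMnt, and the 1 lower call among the 9 genes was that of Hdac1, not one of the group as a whole. The median log2 fold change of the 9 genes was -0.06, beside -0.01 for all tested genes.

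Some facts of the libraries bear on these values. The libraries held between 22323050 and 42193292 reads, and each of the 9 genes had at least 322 reads in every library. Mnt was at 50.4% of the control level, in groups that did not overlap (log2 fold change -0.96 ± 0.22, limma adjusted p = 0.0546, or 0.00442 when replicate numbers were blocked). Principal component 1 (60.8% of the variance) put siNTC replicate 3 at -0.81, between the other controls (-43.0 and -52.3) and the siMnt libraries (29.4 to 35.5). Values without that library are therefore also given for Hdac1, Hdac2, Hdac3, Sap30 and Ncor1. Of 10 epithelial markers 7 were in the table, with summed counts of 115209 to 142725 in siNTC and 131363 to 142025 in siMnt, led by the keratins Krt18 and Krt8. Of these 7, Muc1 rose to 302% of control (limma adjusted p = 0.0368) and 6 did not pass. Among the 6 were Cdh1 at 140% (limma adjusted p = 0.179, or 0.0474 with the block) and Esrp1 at 47.9% (0.248). Esrp1 had groups that did not overlap, but means of only 17.8 in siNTC and 8.55 in siMnt. Epcam, Cldn3 and Cldn7 were not analysed here. Summed counts of 5 immune markers were 963 to 1329 in siNTC and 2001 to 2300 in siMnt. Csf1r made up most of this sum and rose to 209% of control (limma adjusted p = 0.0242). Itgam, at a mean of only 6.02 in siNTC, also rose, to 397% of control (adjusted p = 0.0493, limma). Lyz2 (2.92 and 8.38, groups apart) and Ptprc, the pan-leukocyte gene (3.81 and 3.09), were below the filter, and Cd68 lay at 85.9% of control and did not pass. Summed counts of 4 fibroblast markers were 308 to 396 in siNTC and 410 to 564 in siMnt. Pdgfrb was at 188% of control, groups apart (limma adjusted p = 0.0854, or 0.0147 with the block). Dcn was at 207%, with means of only 7.07 in siNTC and 14.6 in siMnt. Col1a1 was at 109% and Pdgfra at 98.2%, and none of these passed. Sums of 2 adipocyte markers were 11.4 to 38.1 and 62.5 to 90.7. Fabp4, at a mean of only 9.05 in siNTC, rose to 62.1 in siMnt (limma adjusted p = 0.0185), and Cidec, at 103%, did not pass. Those of 3 endothelial markers were 78.2 to 118 and 62.7 to 74.7. Cdh5 was at 50.4%, groups apart (limma adjusted p = 0.0836, or 0.0435 with the block). Vwf, at 176% with groups apart (0.222) but means of only 14.9 in siNTC and 26.2 in siMnt, went the other way. Pecam1 was below the filter. In bulk RNA, fewer cells of a type and less RNA per cell cannot be told apart, and the part of these markers in the results was not tested.

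Among the catalytic subunits, Hdac1 had 1455, 1424 and 1469 normalised read counts in siNTC replicates 1, 2 and 3 and 915, 770 and 985 in siMnt replicates 1, 2 and 3. The 3 controls lay within a narrow range, siNTC replicate 3 included, and every siMnt library was below every control. The means were 1449.5 ± 22.8 and 889.9 ± 109.9 (SD, n = 3 each), a log2 fold change of -0.71 ± 0.13 (SE; limma adjusted p = 0.0321). Its 95% interval ran from 49.7% to 75.1% of the control level. Pairing libraries by replicate number 1, 2 and 3, siMnt held 62.9%, 54.0% and 67.1% of the paired control. Leaving out siNTC replicate 1 ended the call (limma adjusted p = 0.131). So did leaving out any one of siMnt replicates 1, 2 and 3 (0.164, 0.141 and 0.0657). Of all tested genes 0% were called on removing either library numbered 1 or siMnt replicate 2. The share was 0.994% on removing siMnt replicate 3. Where the share was 0%, losing the call was not particular to Hdac1. Without siNTC replicate 3 the Hdac1 call held (0.0187), where 16.1% of all tested genes were called. The log2 fold change lay between -0.79 and -0.61 in the 6 fits that left out 1 library. For Hdac1 taken alone, the exact two-sided permutation p was 0.1, the lower limit of a test of 3 against 3. RefSeq lists a pseudogene of Hdac1, Hdac1-ps, which was not analysed here, and reads shared with it may be counted to either.

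Hdac3 had 2508, 2582 and 2284 in siNTC replicates 1, 2 and 3 and 1791, 1845 and 1880 in siMnt replicates 1, 2 and 3. Its groups did not overlap either, and the control nearest to siMnt was siNTC replicate 3. The means were 2458 ± 155 and 1838 ± 44.9, a log2 fold change of -0.42 ± 0.11 (limma adjusted p = 0.0688), with a 95% interval from 63.2% to 88.8% of control. A fit with a block by replicate number gave adjusted p = 0.0328 (limma), so that 2 of the 9 genes passed as lower where 6.56% of all tested genes did. Without siNTC replicate 3 the adjusted p was also 0.0328 and the log2 fold change -0.47, with 6.52% of all genes passing as lower.

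Hdac2 had 3957, 3804 and 3486 in siNTC replicates 1, 2 and 3 and 3178, 3119 and 3383 in siMnt replicates 1, 2 and 3. The groups were separate, but siNTC replicate 3 and siMnt replicate 3 lay close together, and within number 3 the siMnt value was 97.0% of control against 80.3% and 82.0% within numbers 1 and 2. The log2 fold change was -0.22 ± 0.11 (limma adjusted p = 0.272), with a 95% interval from 72.5% to 102% of control; without siNTC replicate 3 it was -0.27 (adjusted p = 0.159). Hdac1, Hdac2 and Hdac3 were thus the 3 of 9 genes whose groups did not overlap, each lower in siMnt. Groups did not overlap for 31.5% of all tested genes, 15.9% being lower in siMnt. Hdac8, the remaining class I deacetylase, named after its values were seen, was at 617 ± 48.6 and 509 ± 15.6 (log2 fold change -0.27 ± 0.13, limma adjusted p = 0.249). The Hdac8 groups did not overlap either, siMnt holding 92.6%, 80.1% and 76.4% of control within replicate numbers 1, 2 and 3.

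**Figure D1:**
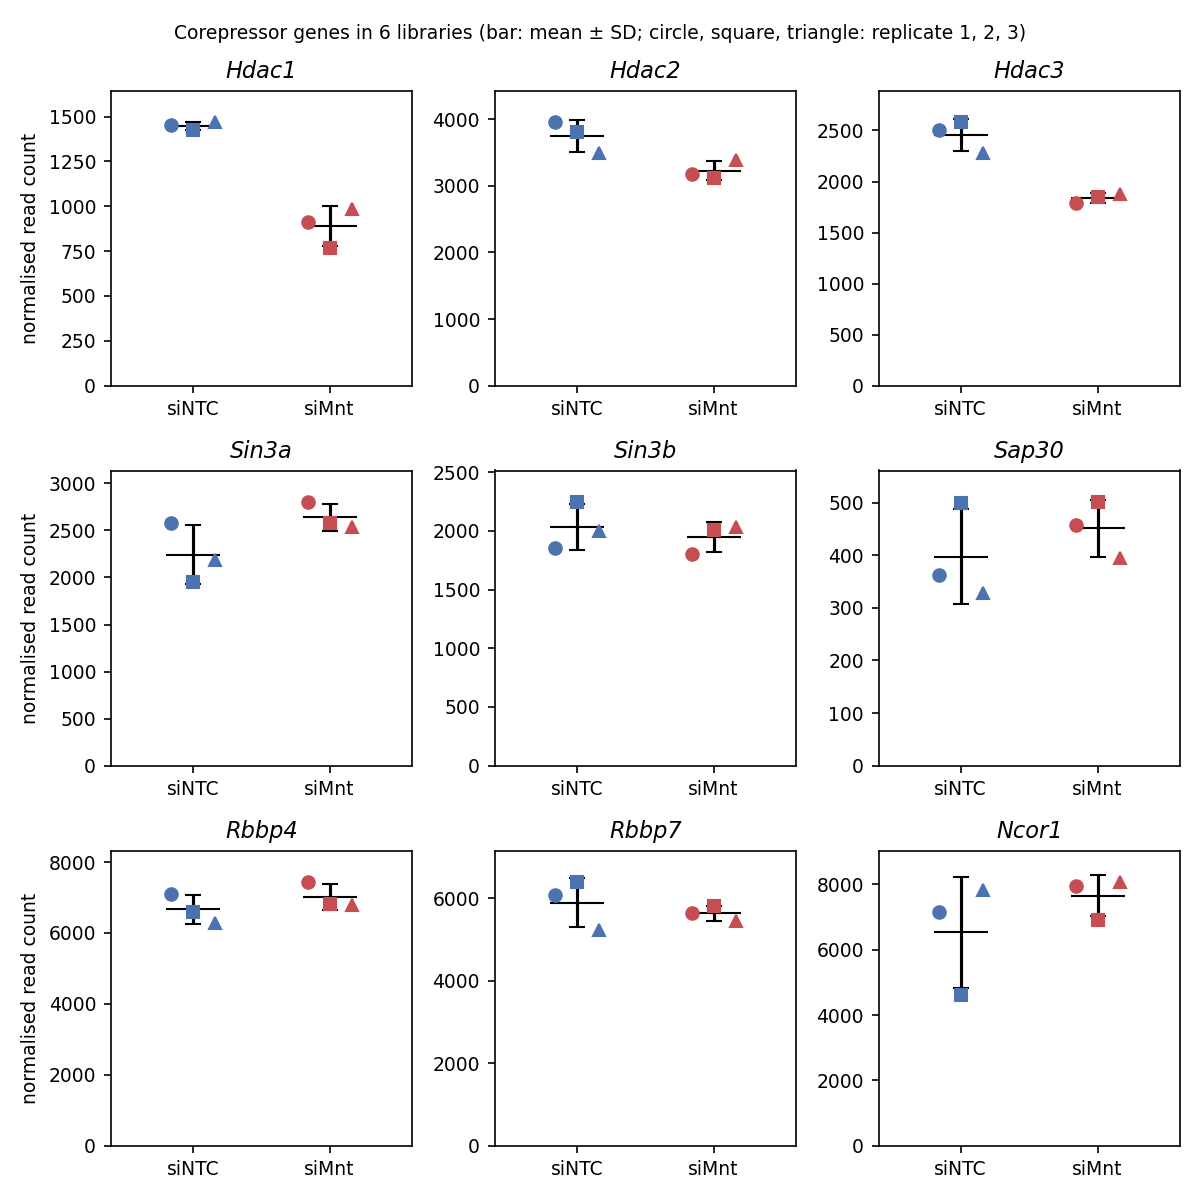
Normalised read counts (y axis, linear from 0, a scale of its own for each gene) of the 9 corepressor genes in siNTC (blue) and siMnt (red) libraries; circles, squares and triangles are replicates 1, 2 and 3, and black bars are the mean ± SD of 3 libraries. The siMnt libraries lie below all controls for Hdac1, Hdac2 and Hdac3, and the groups overlap for the other 6 genes.

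The scaffolds hold the complex together through paired amphipathic helices that dock DNA-binding repressors. Sin3a had 2578, 1956 and 2189 normalised read counts in siNTC replicates 1, 2 and 3 and 2800, 2583 and 2535 in siMnt replicates 1, 2 and 3. Only siNTC replicate 1 reached the siMnt range. The log2 fold change was 0.24 ± 0.13 (limma adjusted p = 0.303), with a 95% interval from 96.0% to 146% of control. This fold change was 0.15 without siNTC replicate 2 and 0.35 without siNTC replicate 1. Sin3b had 1859, 2245 and 2001 in siNTC and 1805, 2005 and 2037 in siMnt replicates 1, 2 and 3. Its groups overlapped throughout, with a log2 fold change of -0.06 ± 0.12 (limma adjusted p = 0.809) and an interval from 79.2% to 116% of control. Both intervals leave out a fall as large as that of Hdac1 (61.4% of control).

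Sap30, a small subunit that binds Sin3 and its deacetylases, was the least expressed of the 9. It had 362, 500 and 329 in siNTC and 458, 501 and 395 in siMnt replicates 1, 2 and 3. The groups overlapped, with replicate 2 the highest of each (log2 fold change 0.20 ± 0.19, limma adjusted p = 0.568; interval from 84.6% to 156% of control). It was 0.38 without siNTC replicate 2 and 0.078 without siNTC replicate 3.

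Rbbp4 and Rbbp7 are WD40-repeat proteins that bind histones in the Sin3 and NuRD complexes and in several other chromatin complexes. Rbbp4 had 7091, 6602 and 6291 in siNTC and 7433, 6805 and 6797 in siMnt replicates 1, 2 and 3. The groups overlapped, and the log2 fold change was 0.07 ± 0.11 (limma adjusted p = 0.732; interval from 88.3% to 126% of control). Rbbp7 had 6073, 6397 and 5229 in siNTC and 5657, 5805 and 5454 in siMnt replicates 1, 2 and 3. Here the siMnt libraries lay inside the control range, with a log2 fold change of -0.06 ± 0.12 (limma adjusted p = 0.804; interval from 79.4% to 116% of control).

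Ncor1, the corepressor of unliganded nuclear receptors that activates Hdac3, had 7166, 4601 and 7830 in siNTC and 7957, 6924 and 8072 in siMnt replicates 1, 2 and 3. The low library was siNTC replicate 2, and the groups overlapped. The log2 fold change was 0.26 ± 0.20 (limma adjusted p = 0.473), with an interval from 87.0% to 165% of control. This fold change was 0.027 without siNTC replicate 2 and 0.41 without siNTC replicate 3 (limma adjusted p = 0.185 for the latter). Ncor1 overlaps Ttc19 and Pigl on the opposite strand, Sin3a overlaps 2700012I20Rik and Man2c1os, Rbbp4 overlaps Sync and Rbbp7 overlaps Txlng in the GENCODE M21 annotation. The labels do not say whether the libraries kept strand, so reads of these overlaps cannot be assigned.

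**Figure D2:**
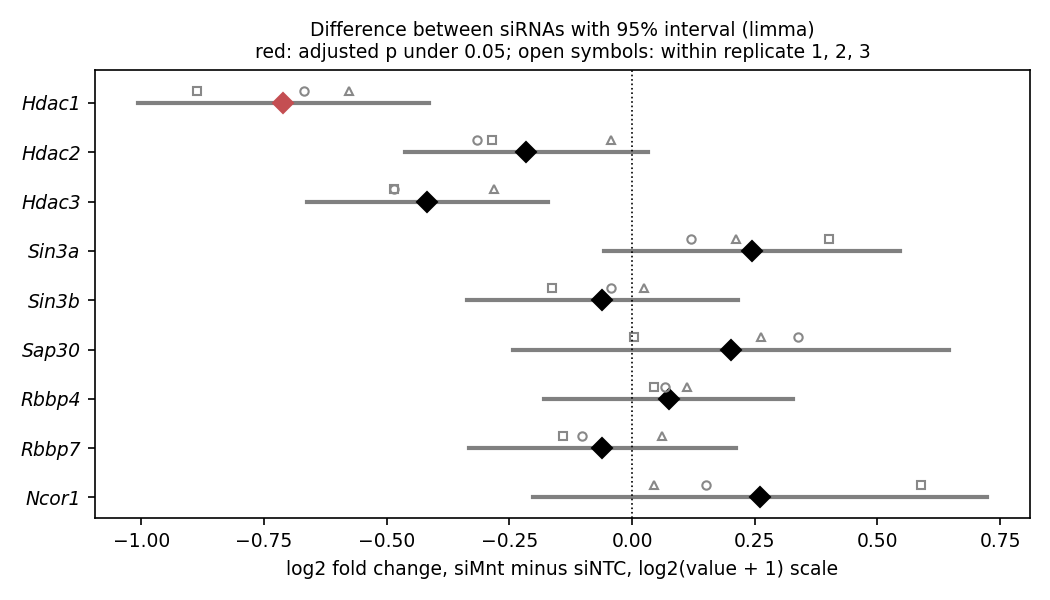
Log2 fold change, siMnt minus siNTC, of each gene (x axis, log2(value + 1) scale; genes in rows), with the limma estimate (diamond, red where the adjusted p was under 0.05), its 95% interval (grey line) and the differences within replicate numbers 1, 2 and 3 (open circle, square, triangle). Hdac1 at -0.71 is the only red diamond, the intervals of Hdac1 and Hdac3 lie below 0 before adjustment, and those of the other 7 genes include 0.

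Of the 9 genes 7 had a promoter window in the RefSeq table used here, 250 bases before to 50 after the transcript start in build GRCm38.p6. Those windows were searched for CACGTG, which reads the same on both strands. It occurred in the window of 1 of these 7 genes, Rbbp4, beside 11.6% of the 9926 tested genes that had a window and 7.15% of all 32851 windows of the table. The Rbbp4 window, chr4:129335321-129335620 on the minus strand, is shown because it holds the site, in capitals, 224 bases upstream of the start:
Rbbp4: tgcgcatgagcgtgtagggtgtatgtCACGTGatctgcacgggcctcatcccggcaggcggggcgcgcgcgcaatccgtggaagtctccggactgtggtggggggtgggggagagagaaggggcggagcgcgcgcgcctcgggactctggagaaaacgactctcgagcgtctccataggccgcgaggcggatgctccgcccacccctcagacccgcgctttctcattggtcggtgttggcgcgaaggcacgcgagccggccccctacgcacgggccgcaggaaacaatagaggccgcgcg
The Rbbp4 transcript was at 105% of the control level, as given above. The match describes the letters of the window, and binding was not measured here. The windows of Hdac1 and Hdac3 were not analysed here.

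Ratios within a library compare paralogues without regard to the scaling between libraries. Hdac1 and Hdac2 can replace each other in the complexes they share. The Hdac1 count was 36.8%, 37.4% and 42.1% of the Hdac2 count in siNTC replicates 1, 2 and 3 and 28.8%, 24.7% and 29.1% in siMnt replicates 1, 2 and 3. Every siMnt library had a lower share of Hdac1 than every control. The log2 ratio went from -1.37 ± 0.11 to -1.86 ± 0.13 (SD, n = 3 each), a difference of -0.50, several times the spread within groups, with an exact two-sided permutation p = 0.1, the smallest possible. The difference was -0.35, -0.60 and -0.53 within replicate numbers 1, 2 and 3. The Sin3a to Sin3b log2 ratio went from 0.13 ± 0.34 to 0.44 ± 0.17 (difference 0.30, exact permutation p = 0.3) and that of Rbbp4 to Rbbp7 from 0.18 ± 0.12 to 0.31 ± 0.08 (difference 0.13, exact permutation p = 0.2). For both of these pairs the groups overlapped. Within replicate numbers 1, 2 and 3 the differences were 0.16, 0.56 and 0.19 for Sin3a to Sin3b and 0.17, 0.18 and 0.051 for Rbbp4 to Rbbp7, higher in siMnt in 3 of 3 numbers for each pair. Because the exact test cannot go below 0.1 with 3 libraries a group, none of the 3 ratios could pass a threshold of 0.05 by it.

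**Figure D3:**
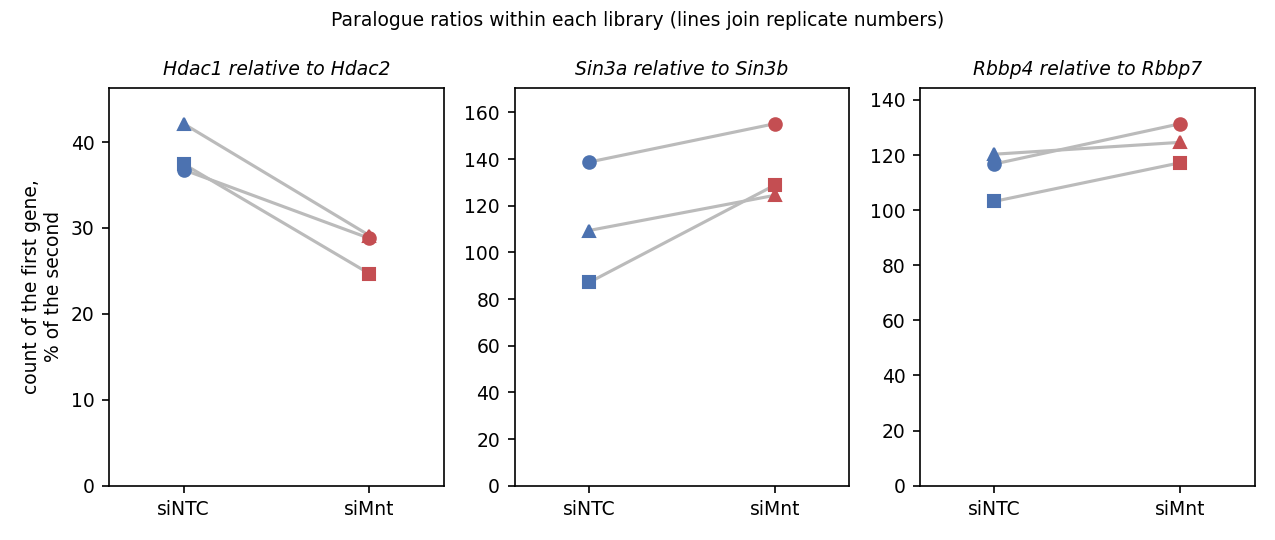
Count of the first gene as a percentage of the second in each library (y axis, linear from 0) for the 3 pairs of paralogues, siNTC in blue and siMnt in red, with lines joining libraries of the same replicate number. Hdac1 relative to Hdac2 falls from between 36.8% and 42.1% to between 24.7% and 29.1%, and the groups overlap for the other pairs.

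Levels of different genes were set on 1 scale by dividing normalised read counts by the length of the longest GENCODE M21 transcript of each gene. The order between genes depends on this choice of transcript, and other lengths were not tried. The SD holds only the spread of counts between libraries. In siNTC the level per kilobase was highest for Rbbp7 (2629 ± 269), Rbbp4 (1429 ± 86.5) and Hdac2 (1154 ± 73.8). Ncor1 (723 ± 189), Hdac1 (711 ± 11.2) and Hdac3 (686 ± 43.3) followed and did not differ from each other beyond their spread. Sin3b (495 ± 47.5), Sin3a (431 ± 60.4) and Sap30 (337 ± 76.8) came last, and each overlapped its neighbour. In siMnt the level per kilobase of Hdac1 was 437 ± 53.9, below every library of Hdac3 (513 ± 12.5) and Sin3a (507 ± 27.1) and overlapping Sin3b (474 ± 30.6) and Sap30 (383 ± 45.5). Hdac2 stood at 993 ± 42.7 and Ncor1 at 847 ± 69.9.

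Among the 3 tested genes nearest to Hdac1 in their centred log2 values over the 6 libraries were the tubulin Tubb2a and Ttc12, with root mean square distances of 0.069 and 0.081 on the log2 scale. Tubb2a was at 2039 ± 121 in siNTC and 1319 ± 189 in siMnt, and reads may be shared with its near-identical paralogue Tubb2b. Among the corepressor genes Hdac3 was the nearest to Hdac1 (distance 0.19), followed by Hdac2 (0.27), and the other 6 lay at 0.36 or more. Among the 12568 tested genes, Hdac3 was at rank 290 and Hdac2 at rank 1251 in nearness to Hdac1.

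Outside the 9 genes, 89 tested genes of 9 wider lists of chromatin regulators were examined, out of 92 listed. Of these 1 rose, 0 fell and 88 did not pass; 9 had an unadjusted p under 0.05, beside 23.4% of all tested genes. The gene that rose was Mxi1, a Max partner and repressor that, like Mnt, recruits Sin3. It had 2436, 1923 and 2588 normalised read counts in siNTC replicates 1, 2 and 3 and 3551, 3543 and 3507 in siMnt replicates 1, 2 and 3. All siMnt values were alike and above every control. The log2 fold change was 0.62 ± 0.13 (limma adjusted p = 0.0478). The adjusted p passed the threshold neither without siNTC replicate 1 (0.147) nor without any one of siMnt replicates 1, 2 and 3 (0.215, 0.187 and 0.124). Nor did it pass with a filter at a mean of 50 (0.0535), where 2.87% of all tested genes did. As given for Hdac1, 0% of all tested genes were called on removing either library numbered 1 or siMnt replicate 2. Losing the call there was not particular to Mxi1. In the blocked fit 3 of the 89 were higher and 4 lower, where 15.9% of all tested genes passed, so this count is below the background share. Those higher were Mxi1, the repressor Bcl6 and the polycomb methyltransferase Ezh1. Those lower were the NuRD subunits Mta2 and Chd3, the remodeller Smarca5 and the Smad corepressor Tgif1. Mta2, Bcl6, Ezh1, Smarca5 and Tgif1 were named after their values were seen.

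Over all tested genes edgeR called 3.54% and DESeq2 11.6%. Of 16 other Sin3 complex subunits 0 passed by limma, edgeR or DESeq2, and 2 had an unadjusted p under 0.05 (limma), with a median log2 fold change of 0.02. The 2 most expressed, the O-GlcNAc transferase Ogt and the histone demethylase Kdm5a, had log2 fold changes of 0.22 ± 0.19 and -0.06 ± 0.16. The lowest, -1.17 ± 1.03, was that of Sap25, with only 15.9 ± 17.8 and 6.43 ± 8.24 normalised read counts in overlapping groups. The 2 with an unadjusted p under 0.05 were both higher, Sap18 (0.40 ± 0.15) and Ing2 (0.35 ± 0.14), named after their values were seen. In this list groups did not overlap for 3 genes higher and 0 lower in siMnt, beside 15.6% and 15.9% of all tested genes. Of 7 other NCoR complex subunits 0 passed by any of the 3 tools, and 0 had an unadjusted p under 0.05 (median 0.20; the WD40 subunit Tbl1xr1 0.29 ± 0.24).

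Of 10 NuRD subunits 0 passed by limma or edgeR and 1 by DESeq2, and 1 had an unadjusted p under 0.05 (median -0.04). The helicase Chd4 had a log2 fold change of 0.20 ± 0.20 and its relative Chd3 -0.55 ± 0.27 (limma adjusted p = 0.26; 0.0382 with the block). Mta2 was at 6068 ± 273 and 4596 ± 402 in groups that did not overlap (log2 fold change -0.40 ± 0.11, limma adjusted p = 0.0855; 0.0448 with the block, and 0.0243 by DESeq2). Of 9 CoREST subunits 0 passed by any tool, and 0 had an unadjusted p under 0.05 (median 0.09; the demethylase Kdm1a -0.21 ± 0.12, Phf21a 0.18 ± 0.18). Of the 2 tested MiDAC subunits, Elmsan1 (-0.15 ± 0.14) and Dnttip1 (0.06 ± 0.12), 0 passed by any tool and 0 had an unadjusted p under 0.05.

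Of 15 other deacetylases and sirtuins 0 passed by any tool, and 0 had an unadjusted p under 0.05 (median 0.06). The tubulin deacetylase Hdac6 had a log2 fold change of 0.21 ± 0.14 and the class IIa member Hdac7 one of 0.38 ± 0.21. Of 10 histone acetyltransferases 0 passed by any tool and 1 had an unadjusted p under 0.05 (median 0.08; Ep300 0.21 ± 0.15, Kat6a 0.06 ± 0.18). Of 10 tested polycomb and chromatin assembly partners of Rbbp4 and Rbbp7, 0 passed by limma or edgeR and 1 by DESeq2, with 2 at an unadjusted p under 0.05 (median 0.13; the remodeller subunit Bptf 0.06 ± 0.19, the polycomb subunit Suz12 0.27 ± 0.15). Of 10 tested recruiters Mxi1 alone passed (median 0.10), and 3 had an unadjusted p under 0.05 (limma), beside 23.4% of all tested genes. With the block 2 recruiters were higher and 1 lower, where 9.33% and 6.56% of all tested genes were. Of 19 cell cycle genes 0 passed by any tool and 0 had an unadjusted p under 0.05 (median 0.09), and 2 were higher with the block, where 9.33% of all tested genes were. Mki67, 1 of these 2 (limma adjusted p = 0.0356 with the block, 0.232 without), was at 8145 ± 2637 and 11477 ± 2223. Top2a was at 14718 ± 4080 and 16503 ± 2708.

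**Figure D4:**
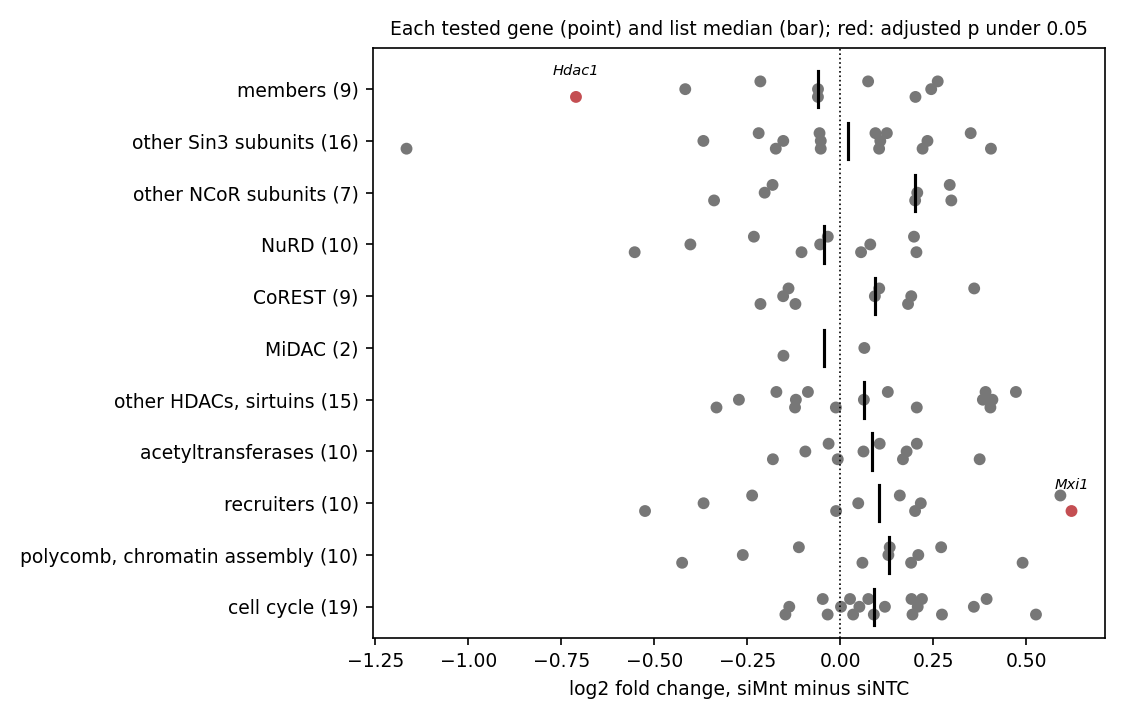
Log2 fold change, siMnt minus siNTC (x axis), of every tested gene (points) in the corepressor set, the 9 wider lists and the cell cycle list (rows, number tested in brackets; the top row holds the 9 corepressor genes), with the median of each list as a black bar; red points have an adjusted p under 0.05 (limma). The red points are Hdac1 and Mxi1, and list medians lie between -0.06 and 0.20.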

How the data were processed

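The authors deposited 1 table of normalised read counts, a signal that is never negative, for 14526 genes named by symbol in 6 libraries. TopHat2 2.1.0, DESeq with version 3.5, DESeq2 without a version and build mm9 are listed in the submitters' processing notes. How reads were counted, the annotation and any filter were not stated. Each value is a read count divided by 1 factor per library, and 99.75% of the non-zero values came within 0.05 of whole reads. Replicates are not stated to be separate cultures, so p-values measure the spread between these libraries, which may be technical. No replicates were copies (mean chi-square per gene 13.3 or more).

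Log2(value + 1) of genes with a mean of 10 or more was tested with limma 3.58.1 in R 4.3.3 (empirical Bayes with trend, no block, all 6 libraries). Same-numbered libraries deviated together from their group means (correlations 0.28, 0.50 and 0.35). A block by the replicate numbers of the titles is therefore given where it changes the call of a gene named here. Alternatives were other pseudocounts, filters, scalings and a threshold of 0.1, no trend, the block, each library left out, edgeR 4.0.16 and DESeq2 1.42.0 on recovered reads, and a loess correction for GC content and transcript length (GENCODE M21, 98.5% of genes matched). Scripts were tested on simulated data. The members and lists were chosen with earlier results of these data known. Named genes were the 9 members, Mnt, the genes of each other list that passed or otherwise its 2 most expressed, and the 3 genes nearest to Hdac1; some of these genes are not reported here.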

Additional observations from a re-analysis of the deposited data

How the results depend on the processing

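Hdac1 kept its direction under all 19 alternatives and its call under 14. Hdac3 kept its direction under all 19 and passed under 6 of them, DESeq2 (adjusted p = 0.0111) and the GC and length correction (0.0314) among them. Without a trend in the variance 0 of the 9 corepressor genes passed (adjusted p = 0.0508 for Hdac1), 0 of the wider genes and 306 of all tested genes. The corepressor genes called lower were 2, Hdac1 and Hdac3, under DESeq2, the replicate block, the GC and length correction, that correction with the replicate block, and a threshold of 0.1; 0 were called higher under any. Under these 5 settings the wider genes called in either direction were 3, 7, 3, 10 and 3. All tested genes called in either direction were 1457, 1998, 1017, 2642 and 1336. Under the first 4 of these settings 4.89%, 6.56%, 4.02% and 11.5% of all tested genes were called lower. The GC and length correction gave 518 higher and 499 lower genes, in place of 322 and 172. With a filter at a mean of 50, 322 genes passed in all and 0 of the wider genes. Leaving out 1 library gave 0 to 2 corepressor genes called lower, 0 to 4 wider genes and 0 to 2024 of all genes. By limma 0 genes passed when siNTC replicate 1, siMnt replicate 1 or siMnt replicate 2 was left out, with 2200, 1807 and 1911 genes at an unadjusted p under 0.05, and 125 when siMnt replicate 3 was. The log2 ratio differences ranged from -0.54 to -0.42 (Hdac1 to Hdac2), 0.14 to 0.47 (Sin3a to Sin3b) and 0.07 to 0.18 (Rbbp4 to Rbbp7). The replicate block left each ratio difference as it was (exact sign-flip permutation p = 0.25, the smallest for 3 pairs). The block changed no call among the 9 genes other than that of Hdac3.

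Some log2 fold changes, none called and at most 0.20 in size (Chd4) in the main fit, changed sign when 1 library was left out. Their log2 fold changes then ranged from -0.12 to 0.013 (Sin3b), -0.14 to 0.000502 (Rbbp7), -0.21 to 0.056 (Kdm5a), -0.024 to 0.32 (Chd4), -0.030 to 0.32 (Phf21a), -0.13 to 0.18 (Kat6a), -0.16 to 0.18 (Bptf) and -0.034 to 0.38 (Top2a). Kdm5a was 0.030 without siMnt replicate 2. With the GC and length correction, with or without the replicate block, Dnttip1 was at -0.0076, Kat6a at -0.023 and Bptf at -0.053. The cause was not tested. With 3 libraries a group the interval of Hdac2 includes both no difference and a fall to 72.5% of control, so absence of change is not shown.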
